A study of Mus musculus with 816 samples.

Results

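High-density lipoprotein (HDL) was 1 of the lipid stimuli applied to cultured mouse microglia in a panel of single and combined treatments. The cultures given HDL alone at 2 ug/ul were taken by their labels from the table of the in vitro libraries, 8 treated for 24 h and 7 treated for 72 h, or 15 of the 816 samples of the series. They were compared with cultures that received no stimulus for the same time, 40 at 24 h and 25 at 72 h. All were commercial primary microglia from neonatal mice, of a strain not stated for them, grown in 96-well plates and given fresh medium with or without the stimulus 4 days after plating, and every group shared these steps. The nearest treatments in the panel were linoleic acid (LiA, 9 cultures at 24 h and 8 at 72 h) and palmitic acid (PA, 6 and 7), both at 150 uM. The preparation of HDL and the animals behind each vial were not stated, so p-values measure the spread between culture wells.

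HDL particles carry cholesterol, phospholipids and antioxidant enzymes, and cells exchange sterols with them through Scarb1, Abca1 and Abcg1. Fatty acids released inside a cell activate PPAR factors, whose targets coat lipid droplets and move fatty acids into oxidation. Cell sterol is read by SREBP2, which turns on the cholesterol synthesis genes when sterol is low, and by LXR, which turns on efflux genes when it is high. NRF2 is the factor that responds to oxidants and electrophiles by raising glutathione, thioredoxin and NADPH enzymes. Microglia are the macrophages of the brain and take up lipoproteins and cell debris.

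Library depth was not read from the labels but estimated from the step between low values. The estimates were 4.35 to 30.6 M mapped reads for HDL at 24 h and 2.94 to 25.6 M for HDL at 72 h. In the untreated groups they were 1.09 to 15 and 1.45 to 14.4 M. Within HDL the median correlation of log2 values between cultures was 0.909 at 24 h and 0.84 at 72 h. Values are CPM, the reads of a gene per M mapped reads of its library, differences are on the log2(CPM + 1) scale with their standard errors, and a gene was called at an adjusted p under 0.05. In the 24 h edge wells microglial markers summed to 3390 to 7020 CPM with HDL, below every untreated edge well at 8180 to 13700 CPM, and in the 24 h middle wells to 11700 to 15300 CPM against 8730 to 22100 CPM. At 72 h they summed to 3740 to 6870 against 4330 to 12300 CPM at the edge and to 15300 and 16400 against 14100 to 17600 CPM in the middle. Tmem119 stayed at or below 64.7 CPM and P2ry12 at or below 12.8 CPM in all of these cultures. Markers of astrocytes, neurons, monocytes with neutrophils, and T with B cells each summed to less than 90 CPM in every culture, while fibroblast and mural markers reached 471 CPM with HDL and 1280 CPM without at 24 h. The median of the latter was 294 CPM with HDL against 55.4 CPM in the 24 h edge wells, and 54.0 against 165 CPM in the middle wells. The part of these marker shifts in the 24 h results was not tested. These are bulk samples, so fewer cells of a type and less RNA per cell cannot be told apart.

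The wells themselves differed before any stimulus is considered. Without a stimulus, wells at the edge of a plate differed from wells in the middle in 268 of 11394 genes at 24 h (2.35%, 1.2% higher at the edge and 1.15% lower) and in 4008 at 72 h (35.2%, 4.82% higher and 30.4% lower), and at 72 h 17 of 19 NRF2 targets were higher and 22 of 23 proliferation genes lower at the edge. The 72 h middle wells without stimulus were all on 1 plate, so plate and position cannot be told apart there, and since the HDL middle wells of 72 h were on another plate, HDL and plate cannot be told apart in any 72 h contrast of middle wells with untreated cultures. HDL at 24 h occupied 4 edge wells on plate 1 and 4 middle wells on plate 2, and HDL at 72 h occupied 5 edge wells on plates 3 and 4 and 2 middle wells on plate 3. The source ID given for each culture, such as Sciencell_Feb15 or Sciencell_May16, was read here as its lot of cells. HDL at 24 h came from other lots than HDL at 72 h, so time and lot cannot be told apart. Results are therefore given for all wells and, from fits that share no culture, for middle wells and edge wells. The HDL edge and middle wells of 24 h differed in plate and in lot of cells as well. Position, plate and lot therefore cannot be told apart where the 24 h results of edge and middle wells differ. Plate 2, where 4 HDL and 4 untreated cultures all lay in the middle, and plate 4, where 4 HDL and 6 untreated cultures all lay at the edge, matched both plate and position, while plate 1 held a single untreated edge well beside its HDL edge wells.

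HDL changed 142 of 11394 genes at 24 h, 82 higher (0.72%) and 60 lower (0.527%), together 1.25% of genes tested, and 385 at 72 h, 127 higher (1.11%) and 258 lower (2.26%), together 3.38%. With plate as a term 299 were called at 24 h (2.62%, of which 1.37% higher and 1.26% lower) and 665 at 72 h (5.84%, 3.36% higher and 2.47% lower). Called in the same direction with and without that term were 109 genes at 24 h (0.957%, 0.632% higher and 0.325% lower) and 223 at 72 h (1.96%, 0.693% higher and 1.26% lower). In middle wells 397 genes were called at 24 h (3.48%, 1.43% higher and 2.05% lower) and 900 at 72 h (7.9%, 1.61% higher and 6.28% lower). In edge wells 51 were called at 24 h (0.448%, 0.246% higher and 0.202% lower) and 56 at 72 h (0.491%, 0.272% higher and 0.219% lower). Few genes were called in both positions. At 24 h 13 genes were higher (0.114%) and 7 lower (0.0614%) in both, and at 72 h 11 were higher and 11 lower (0.0965% each). Acot1, Plin2 and Srxn1 were higher and Clec12a was lower at both times in both positions.

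Genes for lipid storage and fatty acid use were higher with HDL at both times. Of 29 tested genes linked to PPAR factors, 6 rose at 24 h (Plin2, Cpt1a, Angptl4, Hilpda, Acot1 and Pnpla2) and 4 at 72 h (Plin2, Angptl4, Hilpda and Acot1), none fell over all wells, and these 6 and 4 were also called with plate in the model, which added Cd36 at 24 h and Fabp4, Ucp2, Hadha, Ech1 and Pnpla2 at 72 h. The median difference of the list was 0.26 at 24 h and 0.57 at 72 h, against 0.01 and -0.10 over all genes. In middle wells Fabp5 was lower at both times and Mgll at 72 h. Pdk4, a PPAR target in many tissues, did not exceed 5.53 CPM in any of these cultures and was not tested.

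Plin2 encodes the coat protein of lipid droplets. With HDL it measured 2390, 2850 and 4310 CPM (lowest, median and highest culture) at 24 h, against 664, 1340 and 2440 CPM in untreated cultures. At 72 h it measured 5410, 5720 and 7100 CPM against 1150, 1550 and 3810 CPM. The 72 h groups did not overlap, and at 24 h 1 HDL culture lay below the highest untreated culture. The difference was 1.11 ± 0.16 at 24 h (adjusted p = 3.08e-06) and 1.80 ± 0.18 at 72 h (adjusted p = 4.26e-12). At 72 h it was 2.13 ± 0.30 in middle wells and 1.58 ± 0.19 in edge wells, both called.

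Angptl4 encodes a secreted inhibitor of lipoprotein lipase. Its HDL values were 22.5, 37 and 39.8 CPM at 24 h and 39.2, 61.8 and 75.8 CPM at 72 h, and its untreated values 0, 4.77 and 12.1 CPM and 0, 5.63 and 27.6 CPM. All HDL cultures lay above all untreated cultures at both times, which held for 4 of 11394 genes at each time (0.0351%). The difference was 2.78 ± 0.37 at 24 h (adjusted p = 1.89e-07) and 3.28 ± 0.40 at 72 h (adjusted p = 1.88e-08). In the edge wells of 24 h it was 2.39 ± 0.64 and did not pass (adjusted p = 0.0908).

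Hilpda, which inhibits the lipase that empties droplets, measured 50.5, 83.2 and 170 CPM with HDL and 3.22, 20.9 and 114 CPM without at 24 h. At 72 h it measured 179, 284 and 490 CPM with HDL and 4.22, 29.2 and 63.9 CPM without. The 24 h groups overlapped and the 72 h groups were fully apart. The difference was 1.75 ± 0.37 at 24 h (adjusted p = 0.00318), where it was called in middle wells and not in edge wells (1.07 ± 0.52, adjusted p = 0.806), and 3.22 ± 0.41 at 72 h (adjusted p = 3.33e-08).

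Acot1 cleaves fatty acyl-CoA in the cytosol, and Cpt1a carries fatty acids to the mitochondrion. Acot1 was low in untreated cultures, with medians of 1.97 CPM at 24 h and 3.56 CPM at 72 h, and measured 7.81, 12.5 and 53.3 CPM and then 18.5, 34.1 and 50.4 CPM with HDL. It rose by 2.46 ± 0.38 at 24 h (adjusted p = 7.64e-06) and 2.78 ± 0.42 at 72 h (adjusted p = 3.8e-06). Cpt1a rose by 0.97 ± 0.19 at 24 h (adjusted p = 0.001), while at 72 h its difference was 0.67 ± 0.21 (adjusted p = 0.0544). Pnpla2, the main triglyceride lipase of droplets, rose by 0.94 ± 0.22 at 24 h (adjusted p = 0.00829) and differed by 0.58 ± 0.24 at 72 h (adjusted p = 0.171). Fabp5, a fatty acid carrier, went the other way in middle wells, by -0.62 ± 0.17 at 24 h (adjusted p = 0.024) and -0.81 ± 0.24 at 72 h (adjusted p = 0.0274), and was not called in edge wells or in all wells.

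**Figure D1:**
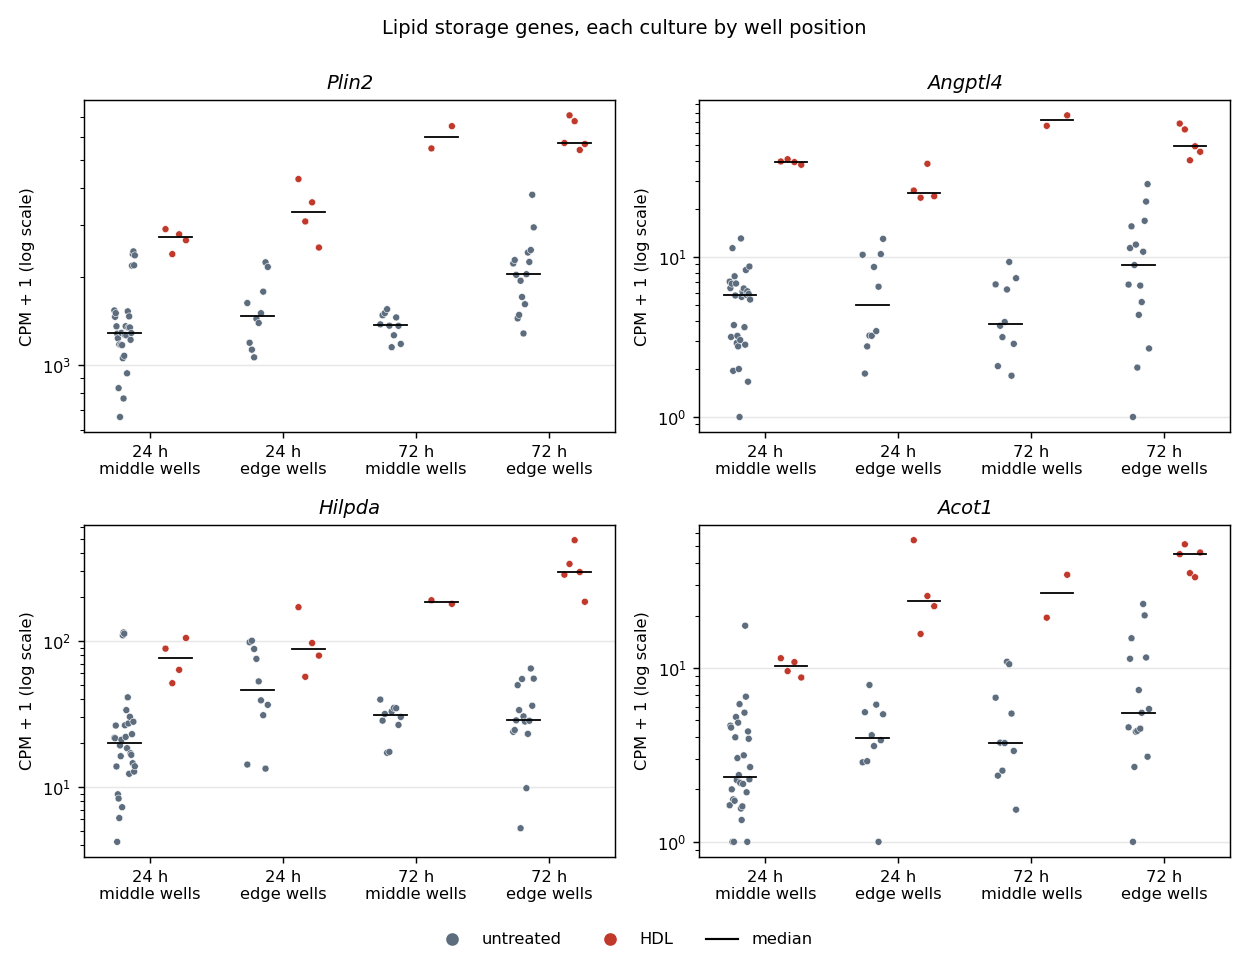
CPM + 1 on a log axis for Plin2, Angptl4, Hilpda and Acot1 in each culture, grouped by time and by well position, with untreated cultures in grey, HDL cultures in red and medians as black lines. The HDL medians lie above the untreated medians in all 4 pairs of groups for each gene, and the 72 h HDL cultures of Plin2, from 5410 to 7100 CPM, lie above the highest untreated culture at 3810 CPM.

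Of the 17 pathway lists, that of NRF2 targets had the most members called higher at 24 h. Of 19 tested, 12 were higher and none lower (median difference 1.33), all 12 were also called with plate as a term, and 8 were called in middle wells and 8 in edge wells, with Cat, Gclc, Gclm, Slc7a11 and Srxn1 in both. At 72 h 5 of 19 were called (Srxn1, Prdx1, G6pdx, Taldo1 and Tkt), 10 of 19 in middle wells and 2, Srxn1 and Tkt, in edge wells. The rank-sum test called 0 of 19 at 72 h, with 11 higher at an unadjusted p under 0.05. In untreated wells at 72 h 17 of the 19 were higher at the edge than in the middle. Only Srxn1 and Tkt were called at 72 h both with and without plate as a term.

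A 9-base antioxidant response element, TGACNNNGC on either strand, was searched for in the 250 bases before each gene's start. It was found in 5 of the 16 list members with a promoter in the RefSeq table (GRCm38.p6). The share was 11.5% over all 27025 genes and 10.2% over all 32851 promoters. Stretches of 3 of these promoters are shown because the genes are measured below. The capitals mark the element, which in each lies on the opposite strand and in Prdx1 overlaps an AP-1 element.
Gclm, chr3:122245383-122245471 (+): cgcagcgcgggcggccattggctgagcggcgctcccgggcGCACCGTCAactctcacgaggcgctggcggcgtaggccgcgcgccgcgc
Prdx1, chr4:116685426-116685514 (+): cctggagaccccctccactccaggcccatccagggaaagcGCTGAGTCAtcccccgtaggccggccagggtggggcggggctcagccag
Txnrd1, chr10:82859074-82859162 (+): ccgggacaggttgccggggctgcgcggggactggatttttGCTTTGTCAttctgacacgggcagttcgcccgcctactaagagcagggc

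Gclm and Gclc are the regulatory and catalytic subunits of the enzyme that starts glutathione synthesis. Gclm with HDL measured 1150, 1980 and 3370 CPM at 24 h against 188, 389 and 2060 CPM without, and 1840, 4700 and 5570 CPM at 72 h against 243, 3790 and 6170 CPM. The groups overlapped at both times over all wells. Within a position at 24 h HDL measured 1150 to 1300 CPM in the middle against 188 to 598 CPM, and 2660 to 3370 CPM at the edge against 376 to 2060 CPM.

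The difference of Gclm at 24 h was 2.15 ± 0.47 (adjusted p = 0.00416), 1.82 ± 0.19 in middle wells (adjusted p = 6.95e-09) and 1.89 ± 0.28 in edge wells (adjusted p = 0.000102). At 72 h it was 2.85 ± 0.28 in middle wells (adjusted p = 1.34e-10), with 1840 and 2430 CPM against 243 to 366 CPM, and 0.10 ± 0.24 in edge wells (adjusted p = 0.943), with 4100 to 5570 CPM against 3330 to 6170 CPM. Over all wells the 72 h difference was 1.34 ± 0.52 (adjusted p = 0.134) and with plate as a term -0.26 ± 0.26. Gclc followed at 24 h, with 96.7, 167 and 206 CPM against 22.8, 60.3 and 124 CPM (1.43 ± 0.30, adjusted p = 0.00302), and was not called at 72 h (1.00 ± 0.33, adjusted p = 0.0739).

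Slc7a11 imports the cystine from which glutathione is made. It measured 64.4, 113 and 209 CPM with HDL at 24 h against 3.12, 23 and 54.6 CPM, so that every HDL culture lay above every untreated culture, and the difference was 2.39 ± 0.44 (adjusted p = 0.000309). At 72 h the groups overlapped and the difference of 1.35 ± 0.48 was not called (adjusted p = 0.101).

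Srxn1, which repairs oxidised peroxiredoxins, was called at both times and in both positions. It measured 324, 365 and 510 CPM with HDL at 24 h against 47.3, 96.9 and 348 CPM, and 409, 1260 and 1360 CPM at 72 h against 36, 457 and 861 CPM. Within a position no HDL culture reached down to an untreated one at either time, with only 2 HDL cultures in the 72 h middle wells. The share of all genes apart in this way is not given. The difference was 1.90 ± 0.39 at 24 h (adjusted p = 0.00264) and 2.12 ± 0.44 at 72 h (adjusted p = 0.00137), and at 72 h it was 3.08 ± 0.30 in middle wells and 1.2 ± 0.22 in edge wells.

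The peroxide-removing enzymes Prdx1 and Cat rose at 24 h, by 1.09 ± 0.24 (adjusted p = 0.00487) and 1.57 ± 0.27 (adjusted p = 8.7e-05). Txnrd1, the reductase of thioredoxin, rose by 1.02 ± 0.28 (adjusted p = 0.037), a call that did not hold in either position alone (adjusted p = 0.103 and 0.147) and was lost in 5 of the 15 fits that left out 1 HDL culture. Among the enzymes of the pentose pathway, Taldo1 rose by 1.45 ± 0.23 (adjusted p = 2.18e-05) and Pgd by 1.33 ± 0.25 (adjusted p = 0.000588) at 24 h. Tkt, of the same branch of the pentose pathway as Taldo1, was not called at 24 h (0.25 ± 0.17, adjusted p = 0.727) and rose by 0.76 ± 0.19 at 72 h (adjusted p = 0.00858). Nqo1, a quinone reductase, rose from a median of 3.15 to 23.3 CPM at 24 h (2.40 ± 0.55, adjusted p = 0.00651) and was called in neither position alone.

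**Figure D2:**
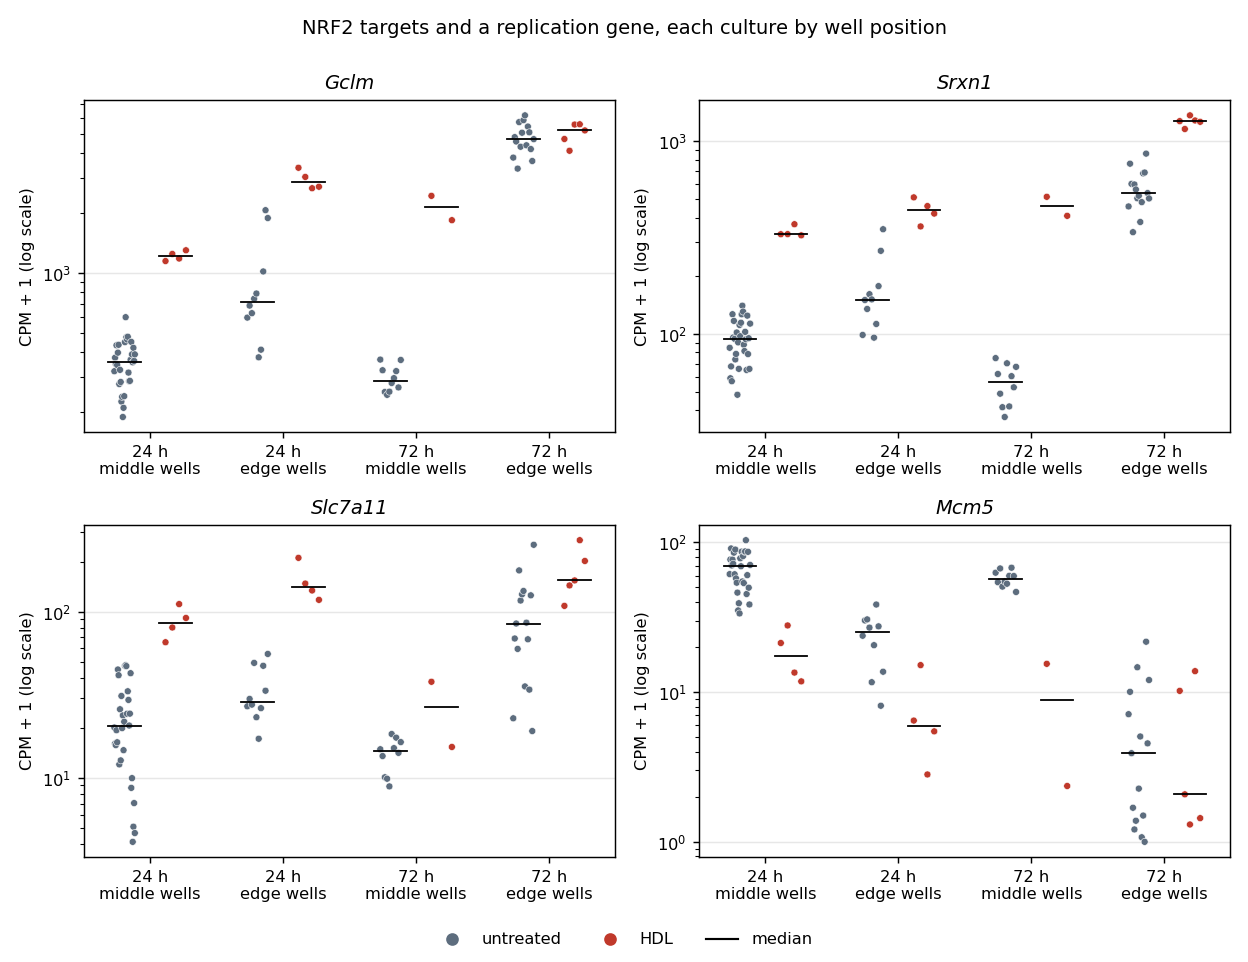
CPM + 1 on a log axis for the NRF2 targets Gclm, Srxn1 and Slc7a11 and the replication gene Mcm5 in each culture, grouped by time and well position, with untreated cultures in grey, HDL cultures in red and medians as black lines. At 72 h the untreated edge wells hold 3330 to 6170 CPM of Gclm, the range of HDL in edge wells, while the untreated middle wells hold 243 to 366 CPM.

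Genes of haem and iron handling, Hmox1 among them also an NRF2 target, rose with HDL at 24 h, and Mt2, a metallothionein that binds zinc and copper, fell. Of 16 tested genes of metal and haem handling, 5 were higher (Slc40a1, Hmox1, Slc11a1, Slc48a1 and Blvrb) and Mt2 was lower at 24 h, each also called with plate in the model. In middle wells 4 of these 5 were higher (Hmox1 was not called, adjusted p = 0.0573) and Mt1 and Mt2 lower, while in edge wells none of the 6 was called and Fth1, the ferritin heavy chain, was the 1 of 16 that was higher (4 higher and 1 lower at an unadjusted p under 0.05). Slc48a1 lost its call in 7 and Slc40a1 in 4 of the 15 fits that left out 1 HDL culture. At 72 h none was higher over all wells (Hmox1 was with plate as a term) and Mt1 and Mt2 were lower, with and without plate as a term and in both positions. In the 72 h middle wells, where HDL and plate cannot be told apart, 4 of the 16 were higher. In the 72 h edge wells none was (1 higher at an unadjusted p under 0.05). Hmox1, which opens the haem ring, measured 638, 1020 and 1930 CPM at 24 h against 265, 493 and 1820 CPM (0.96 ± 0.23, adjusted p = 0.00875), and 0.77 ± 0.25 was its difference at 72 h (adjusted p = 0.0627). Slc40a1, the iron exporter, rose by 1.32 ± 0.34 at 24 h (adjusted p = 0.0227) and differed by -0.32 ± 0.37 at 72 h (adjusted p = 0.711).

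Mt2 with HDL measured 3.88, 16 and 56.9 CPM at 24 h against 7.28, 66.4 and 185 CPM. At 72 h it measured 0.146, 3.13 and 27.6 CPM against 8.99, 44.5 and 236 CPM. Mt2 fell by 1.76 ± 0.40 at 24 h (adjusted p = 0.00582), where the edge wells alone gave -0.96 ± 0.67 (adjusted p = 1.0), and by 3.48 ± 0.44 at 72 h (adjusted p = 3.08e-08). Mt1 measured 105, 175 and 337 CPM at 72 h against 294, 464 and 1160 CPM, a fall of 1.49 ± 0.24 (adjusted p = 1.94e-05), while its 24 h difference was -0.57 ± 0.22 (adjusted p = 0.248). Both genes were lower with HDL in middle and in edge wells at 72 h.

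A 7-base form of the metal response element, TGCACNC, was present, on either strand, in the same 250 bases of 3 of 12 matched members of the list. Other forms of the element were not searched for. The share was 11.8% over all genes and 10.4% over all promoters. Mt1 and Mt2, the members that fell, are shown with this form in capitals, and Mt2 carries this form at 2 places.
Mt1, chr8:94179026-94179088 (+): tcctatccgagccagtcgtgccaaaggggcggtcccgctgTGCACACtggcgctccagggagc
Mt2, chr8:94172368-94172441 (+): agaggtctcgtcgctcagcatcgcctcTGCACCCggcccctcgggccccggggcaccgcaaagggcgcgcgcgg
Mt2, chr8:94172528-94172614 (+): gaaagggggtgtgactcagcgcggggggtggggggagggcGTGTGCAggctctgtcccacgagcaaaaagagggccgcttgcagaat

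Cholesterol synthesis genes were not called at 24 h and rose in part at 72 h. At 24 h 0 of 20 passed limma over all wells, and 0 had an unadjusted p under 0.05. The rank-sum test also called 0, with 3 higher at an unadjusted p under 0.05. At 72 h 5 of 20 were higher and none lower (Fdps, Sqle, Lss, Cyp51 and Hsd17b7, median of the list 0.74), and with plate as a term 10 of 20 (median 1.12). The rank-sum test called 1 of 20 higher at 72 h, with 8 higher at an unadjusted p under 0.05. The difference between the 72 h and the 24 h response was itself called for 0 of 20 by limma over all wells (1 higher at an unadjusted p under 0.05). With plate as a term it was called for 2, Fdps and Cyp51, both with a higher response at 72 h. Middle wells alone gave Cyp51 and Mvd and edge wells alone Cyp51 and Sqle, and untreated edge wells were lower than middle wells in 13 of the 20 at 72 h.

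Cyp51, the sterol demethylase, was the one member called in both positions. It measured 34.2, 74.7 and 101 CPM with HDL at 72 h against 1.25, 25.2 and 59.4 CPM, and 26.6, 41.7 and 58.0 CPM at 24 h against 12.7, 29 and 58.5 CPM. The groups overlapped at both times, although the median HDL culture of 72 h lay above all untreated ones. The 72 h difference was 1.57 ± 0.34 (adjusted p = 0.0022), 1.31 ± 0.36 in middle wells (adjusted p = 0.0152) and 1.90 ± 0.46 in edge wells (adjusted p = 0.042).

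Sqle, which makes squalene epoxide, rose by 1.57 ± 0.42 (adjusted p = 0.0199), Fdps by 1.25 ± 0.35 (adjusted p = 0.026), Lss by 1.46 ± 0.45 (adjusted p = 0.048) and Hsd17b7 by 1.64 ± 0.49 (adjusted p = 0.0427) at 72 h. Of the 5 called genes, the 4 other than Cyp51 had medians of 13.4 to 26.7 CPM with HDL at 72 h, and 0 of 20 passed limma when each time was fitted separately (7 at an unadjusted p under 0.05). In the 15 fits that each left out 1 HDL culture Lss lost its call in 14, Hsd17b7 in 5, Fdps in 3, Sqle in 1 and Cyp51 in 0.

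**Figure D3:**
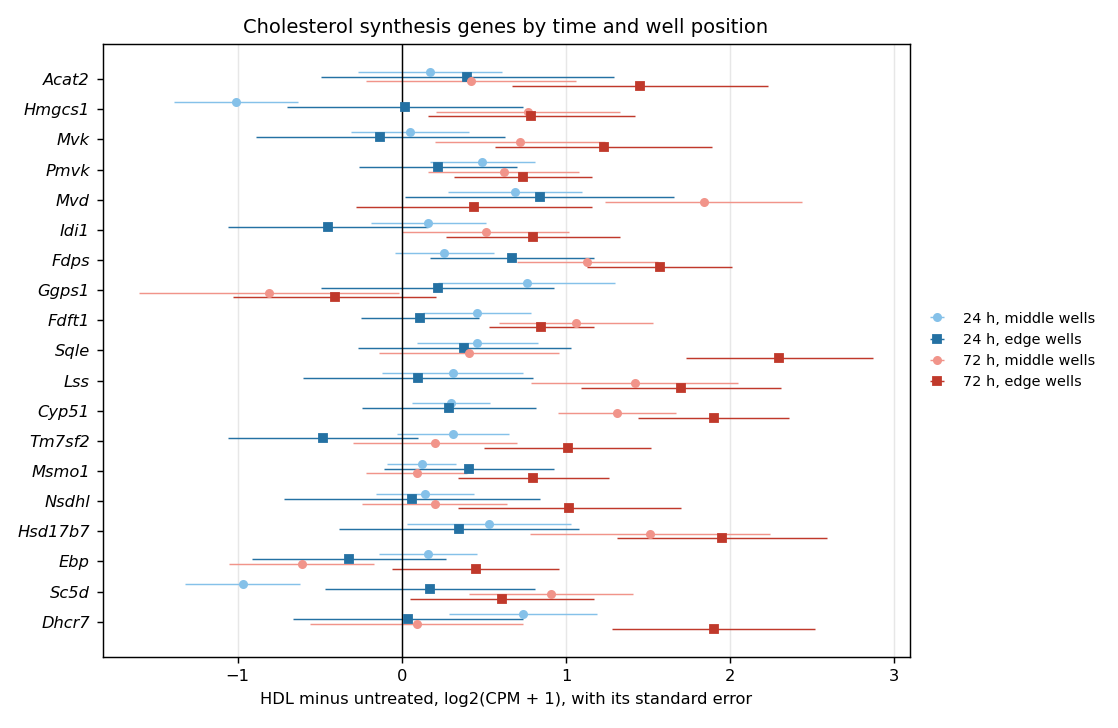
Differences between HDL and untreated cultures in log2(CPM + 1) with standard errors for 19 of the 20 tested cholesterol synthesis genes, with circles for middle wells, squares for edge wells, blue for 24 h and red for 72 h. The 72 h edge wells lie to the right of 0 for most genes, Cyp51 at 1.90 and Sqle at 2.30 among them, and Ggps1 lies left of 0 there at -0.41.

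Among the 23 tested genes of sterol sensing, uptake and trafficking, Mylip, a ubiquitin ligase and LXR target, rose at 24 h (0.93 ± 0.21, adjusted p = 0.0057). Npc1, which moves cholesterol out of lysosomes, was also in the lysosomal list. It measured 98.2, 138 and 176 CPM with HDL at 72 h against a median of 88.5 CPM in untreated cultures, whose highest exceeded every HDL culture, and rose by 0.56 ± 0.17 (adjusted p = 0.0474), but was not called with plate as a term (0.33 ± 0.18, adjusted p = 0.308). Of the 32 tested lysosomal genes, Npc1 and the cathepsin Ctsl rose and Lamp2 and Ctsc fell at 72 h, and Ctsl and Lamp2 were also called with plate in the model.

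LXR targets did not move together. Of 20 tested genes of that list, Smpdl3a and Arl4c rose and Lpl fell at 24 h, and Lpcat3, Smpdl3a and Tgm2 rose and Abcg1 fell at 72 h. With plate as a term Lpl at 24 h (adjusted p = 0.0751) and Smpdl3a at 72 h (adjusted p = 0.335) were not called, and on plate 2 alone the difference of Lpl was 0.32. Arl4c at 24 h and Smpdl3a at 72 h each lost their call in 9 of the 15 fits that left out 1 HDL culture. Abcg1, which hands cholesterol to HDL, measured 6.60, 17 and 40.9 CPM with HDL at 72 h against 14.3, 49.6 and 106 CPM, a fall of 1.35 ± 0.27 (adjusted p = 0.0009) that was called in edge wells and not in middle wells (-0.56 ± 0.42, adjusted p = 0.469). Abca1, the other exporter, differed by -0.32 ± 0.31 at 24 h (adjusted p = 0.87) and -0.97 ± 0.34 at 72 h (adjusted p = 0.0912). Lpcat3, which inserts polyunsaturated fatty acids into phospholipids, rose by 1.2 ± 0.27 at 72 h (adjusted p = 0.00392).

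Scarb1, the receptor for HDL, was not called at either time, with 43.2, 70.9 and 104 CPM against 28.5, 59.8 and 132 CPM at 24 h (0.18 ± 0.30, adjusted p = 0.944) and a difference of 0.24 ± 0.34 at 72 h (adjusted p = 0.769). Pla2g7, a phospholipase that circulates on lipoproteins, was the 1 of 12 tested genes of HDL receptors and associated factors that rose at 24 h, with 694, 1100 and 1830 CPM against 38.2, 408 and 916 CPM (1.75 ± 0.41, adjusted p = 0.01). At 72 h its difference was 1.37 ± 0.46 (adjusted p = 0.0742), and it was called in middle wells (2.56 ± 0.80, adjusted p = 0.0373). Apoe, the apolipoprotein of brain lipoproteins, was among the most abundant transcripts, at 15300, 28000 and 43300 CPM at 24 h against 8170, 20900 and 59000 CPM, and was called at neither time (adjusted p = 0.742 and 0.134). No tested gene of fatty acid synthesis (of 14) or of scavenger receptors (of 11) was called at either time by limma over all wells without a batch term. At an unadjusted p under 0.05 the synthesis list had 2 higher and 2 lower at 24 h and 3 higher at 72 h, the scavenger list had 2 higher at 24 h and 3 higher and 1 lower at 72 h, and the rank-sum test called 1 synthesis gene higher and 1 lower at 24 h. With plate as a term these lists gave Me1 and Cd36 at 24 h and Acly, Marco and Colec12 at 72 h. In middle wells Fads1 and Stab1 were higher at 24 h, and at 72 h Cd36 was higher and Acsl4 lower.

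Proliferation genes were lower with HDL in middle wells. Over all wells 5 of 23 fell at 24 h (Pcna, Mcm5, Mcm6, Rrm2 and Hmgb2) and 0 at 72 h, while in middle wells 15 of 23 fell at 24 h and 16 of 23 at 72 h, with list medians of -1.26 and -2.03. The 72 h middle wells were 2 HDL cultures of plate 3 and 10 untreated cultures of plate 9. With plate as a term over all wells 14 of 23 were lower at 24 h, and at 72 h none was lower, also at an unadjusted p under 0.05, and Mcm2 was higher, with a list median of 0.30. In edge wells 0 of 23 passed limma at either time, with 4 lower at 24 h and 2 higher at 72 h at an unadjusted p under 0.05. Over all wells at 72 h 7 were lower at an unadjusted p under 0.05, and the rank-sum test called 15 lower at 24 h and 0 at 72 h. The untreated edge wells of 72 h were themselves low in 22 of the 23, with a median difference of -3.51 from middle wells.

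Mcm5, a subunit of the replicative helicase, measured 1.82, 11.7 and 26.9 CPM with HDL at 24 h against 7.11, 55.2 and 102 CPM. In middle wells it measured 10.8 to 26.9 CPM at 24 h against 32.6 to 102 CPM, and 1.36 and 14.5 CPM at 72 h against 45.7 to 66.8 CPM. It fell by 2.21 ± 0.57 at 24 h over all wells (adjusted p = 0.0259), by 1.87 ± 0.27 in middle wells at 24 h (adjusted p = 8.62e-06) and by 3.24 ± 0.39 in middle wells at 72 h (adjusted p = 5.99e-08). Rrm2, which makes deoxynucleotides, fell by 2.34 ± 0.34 in middle wells at 24 h (adjusted p = 8.95e-06), and Top2a, the mitotic topoisomerase, by 1.42 ± 0.22 (adjusted p = 1.6e-05). Over all wells at 24 h Rrm2, Hmgb2 and Mcm6 each lost their call in 8 of the 15 fits that left out 1 HDL culture, and Mcm5 in 3. Ccnd1, cyclin D1, was lower at 72 h in both positions, with 0.367, 2.87 and 24.9 CPM against 0, 69.0 and 368 CPM over all wells (-3.95 ± 0.63, adjusted p = 1.53e-05).

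The E2F element TTTCGCGC, on either strand, was found in the same 250 bases of 3 of 19 matched proliferation genes. The share was 0.3% over all genes and 0.256% over all promoters. The promoters of Mcm5, measured above, and Mcm6, called at 24 h, are shown with the element in capitals, in Mcm6 on the opposite strand.
Mcm5, chr8:75109316-75109403 (+): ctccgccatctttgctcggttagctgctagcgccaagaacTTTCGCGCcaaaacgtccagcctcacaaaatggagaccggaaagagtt
Mcm6, chr1:128359764-128359851 (-): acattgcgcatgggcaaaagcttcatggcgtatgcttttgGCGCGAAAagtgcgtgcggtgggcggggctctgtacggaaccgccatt

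Several surface receptors and microglial genes fell. Clec12a, an inhibitory lectin receptor of myeloid cells, was lower at both times in both positions. It measured 43.3, 127 and 227 CPM with HDL at 24 h against 126, 479 and 720 CPM, and 3.77, 35.1 and 137 CPM at 72 h against 52.2, 174 and 621 CPM. Within a position no HDL culture overlapped the untreated ones at either time, with only 2 HDL cultures in the 72 h middle wells. The share of all genes apart in this way is not given. Clec12a fell by 1.94 ± 0.33 at 24 h (adjusted p = 8.7e-05) and by 2.47 ± 0.37 at 72 h (adjusted p = 2.94e-06).

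Cx3cr1, the fractalkine receptor, was lower at 72 h (0.0491, 0.671 and 104 CPM against 1.24, 60.9 and 265 CPM), by 3.08 ± 0.65 over all wells (adjusted p = 0.00193) and by 0.98 ± 0.24 in middle wells (adjusted p = 0.00756), where HDL measured 94.6 and 104 CPM against 120 to 265 CPM. At 24 h Cx3cr1 was called lower with plate as a term and not without it. In the middle wells of plate 2 at 24 h it measured 183 to 210 CPM with HDL against 378 to 468 CPM. The survival receptor Csf1r was called at neither time (0.04 ± 0.23 at 24 h, adjusted p = 0.986, and -0.28 ± 0.26 at 72 h, adjusted p = 0.63).

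Cytokine and interferon genes were lower or were not called. Of 23 tested inflammatory genes, Ccl2, Ccl3 and Ccl4 fell at 24 h and Ccl3, Ccl4 and Clec4e at 72 h, and none rose. With plate as a term Ccl2 at 24 h (adjusted p = 0.479) and Clec4e at 72 h (adjusted p = 0.154) were not called. Ccl2 lost its call in 7 of the 15 fits that left out 1 HDL culture, and on plate 2 alone its difference was 0.05. Ccl4, a chemokine that draws in leukocytes, measured 9.13, 29.6 and 75.8 CPM with HDL at 72 h against 20.5, 172 and 923 CPM, and it fell by 2.87 ± 0.52 (adjusted p = 0.000215) and in both positions. Of 25 interferon genes, 0 were called at 24 h by limma with or without plate as a term (3 lower at an unadjusted p under 0.05, and 1 lower by the rank-sum test), and 4 fell at 72 h (Oas2, Ddx58, Ifih1 and Gbp2), of which Ifih1 was also called with plate in the model. The rank-sum test called 0 of the 25 at 72 h, with 11 lower at an unadjusted p under 0.05. In untreated edge wells at 72 h 14 of the inflammatory and 16 of the interferon genes were lower than in middle wells. Of the genes of disease-associated microglia (20 tested), Ccl6 rose and Lpl and Spp1 fell at 24 h, and Spp1 and Ctsl rose and Clec7a and Cd83 fell at 72 h. Of 5 tested class II genes 0 were called over all wells by the rank-sum test or by limma without plate as a term (1 higher at 24 h and 2 lower at 72 h at an unadjusted p under 0.05), while with plate as a term H2-Aa was higher at 24 h (1.31 ± 0.38, adjusted p = 0.0393), and in middle wells at 72 h H2-Aa, H2-Ab1 and H2-Eb1 were lower. Of 6 tested IL4-type markers, Tgm2 alone was called by limma over all wells, higher at 72 h with and without plate as a term. In middle wells Fn1 was lower at 24 h, and at 72 h Tgm2, Arg1 and Retnla were higher and Mrc1 lower. Arg1 measured 22.7 and 31.3 CPM there against 0.594 to 5.95 CPM.

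Genes of serine and asparagine synthesis rose at 72 h. Of 24 tested genes of the ER stress and amino acid response, Psat1, Phgdh and Asns were higher at 72 h and Slc7a11 at 24 h, none was lower over all wells by limma, and these were also called with plate in the model. In middle wells Phgdh, Pdia4 and Sdf2l1 were lower at 24 h and Hspa5 at 72 h, where Psat1 and Chac1 were higher. The rank-sum test over all wells called 3 of the 24 higher and 1 lower at 24 h, and 2 higher at 72 h. Psat1 measured 106, 182 and 260 CPM at 72 h against 23.4, 62.8 and 161 CPM (1.36 ± 0.24, adjusted p = 8.38e-05) and was called in both positions. Asns rose by 1.40 ± 0.36 (adjusted p = 0.015). It lost its call in 3 of the 15 fits that left out 1 HDL culture. Neither Phgdh nor Asns was called at 72 h in middle wells alone or in edge wells alone.

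**Figure D4:**
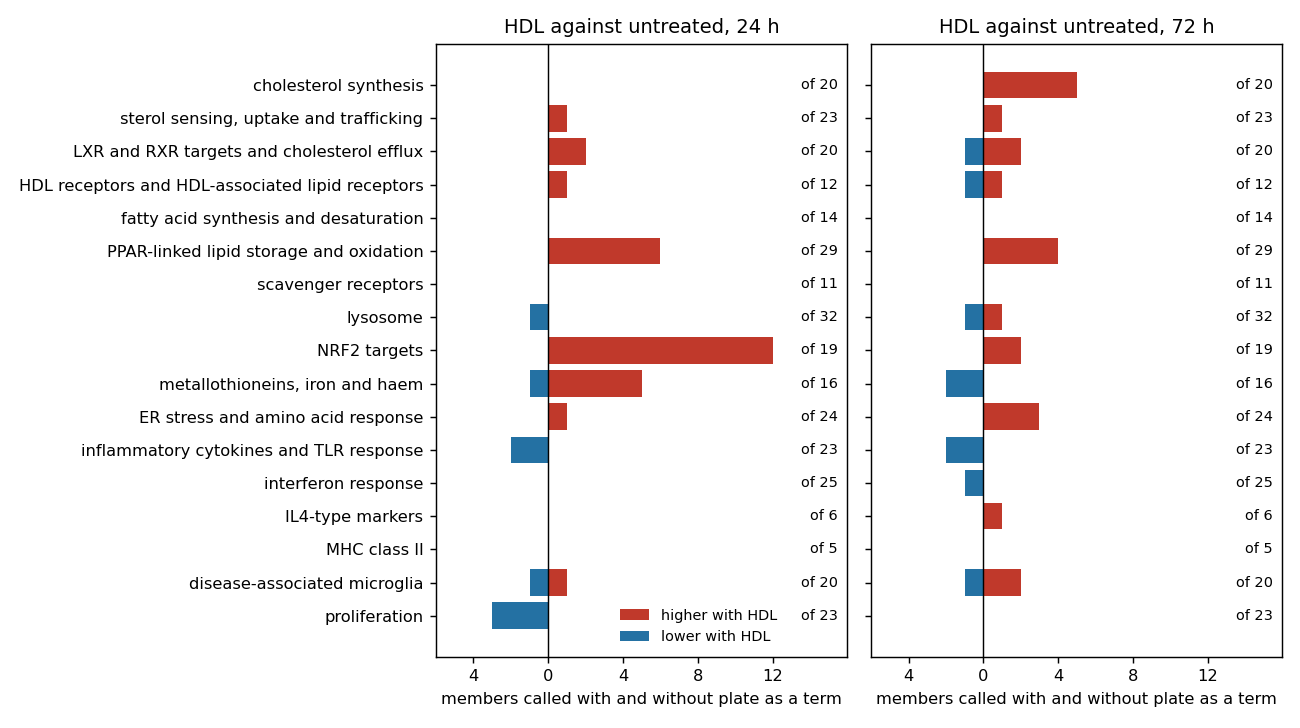
Number of members of each of the 17 gene lists called with and without plate as a term, to the right where higher with HDL and to the left where lower, at 24 h and at 72 h, with the number of members tested at the right. NRF2 targets have the longest bar at 24 h, 12 of 19, and cholesterol synthesis at 72 h, 5 of 20.

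Among the genes with the largest rises at 24 h, Clec4n lay outside these lists. It encodes dectin-2, a lectin receptor of myeloid cells, and measured 93.2, 221 and 362 CPM against 0.538, 37.2 and 135 CPM (2.70 ± 0.51, adjusted p = 0.000588), and its neighbour of the same cluster Clec4d, chosen after its values were seen, rose by 1.24 ± 0.26 (adjusted p = 0.00264). Both were called in both positions at 24 h, and in untreated wells Clec4d was also higher at the edge than in the middle at 24 h, and both genes were at 72 h. Pf4, a chemokine that is also in the perivascular macrophage list, measured 253, 552 and 844 CPM against 53.7, 201 and 359 CPM (1.47 ± 0.25, adjusted p = 7.61e-05), while the summed markers of that list ranged over 496 to 1230 CPM with HDL and 364 to 1060 CPM without, and the part of those cells in the result was not tested. Mamdc2 fell to a median of 0.782 CPM from 9.94 CPM (-2.37 ± 0.36, adjusted p = 5.14e-06).

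Of the genes called with and without plate as a term, 19 were shared by 24 and 72 h in the same direction, 17.4% of the 109 and 8.52% of the 223. Of these 8 rose (Acot1, Angptl4, Cgnl1, Glul, Hilpda, Pkm, Plin2 and Srxn1) and 11 fell (Arhgap25, Ccl3, Ccl4, Clec12a, Cybb, Gnas, Mamdc2, Mt2, Nucks1, Plek and Tmsb4x). Those outside the lists were named after the overlap was seen. Pkm, pyruvate kinase, rose by 0.89 ± 0.19 at 24 h (adjusted p = 0.00294) and 1.19 ± 0.21 at 72 h (adjusted p = 8.38e-05), and Glul, glutamine synthetase, by 0.81 ± 0.14 (adjusted p = 0.000135) and 0.86 ± 0.16 (adjusted p = 0.000215). Cybb, the catalytic subunit of the phagocyte NADPH oxidase, fell by 1.30 ± 0.20 (adjusted p = 5.7e-06) and 0.83 ± 0.22 (adjusted p = 0.0167).

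The difference between the 72 h and the 24 h response was called for 8 of 11394 genes (0.0702%), and for 90 with plate and position as terms (0.79%). Spp1, osteopontin, was called in opposite directions at the 2 times. It measured 156, 310 and 429 CPM with HDL at 24 h against 168, 674 and 2610 CPM, and 849, 1310 and 1600 CPM at 72 h against 363, 513 and 1040 CPM. It fell by 1.33 ± 0.29 at 24 h (adjusted p = 0.00416), rose by 1.12 ± 0.32 at 72 h (adjusted p = 0.0305), and the responses differed by 2.45 ± 0.43 (adjusted p = 0.0021). The 72 h rise lost its call in 4 of the 15 fits that left out 1 HDL culture. The fall was called in the 24 h edge wells and not in the middle wells (-0.60 ± 0.38, adjusted p = 0.459).

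Cxcl14, a chemokine of tissue macrophages and epithelia, rose only in the 72 h comparison, from an untreated median of 71.8 to 350 CPM (1.95 ± 0.28, adjusted p = 1.19e-06) beside 0.29 ± 0.25 at 24 h, and these differed by 1.67 ± 0.38 (adjusted p = 0.0398). The untreated median was 403 CPM at 24 h, near the HDL median of 432 CPM. Fcgr2b, the inhibitory Fc receptor, fell by 1.34 ± 0.28 at 72 h (adjusted p = 0.00157) beside a difference of 0.51 ± 0.25 at 24 h (adjusted p = 0.497), and these differed by -1.85 ± 0.37 (adjusted p = 0.0152). Of the lipid storage and NRF2 genes named above, none was among the 8. With plate as a term 273 genes were called (2.4%), and 10 of 19 NRF2 targets were among them, each with a lower response at 72 h than at 24 h (list median -1.33), Gclm by -2.88 ± 0.35 (adjusted p = 4.97e-08). Fabp4 and Ech1 of the PPAR list had a higher one. With plate and position as terms Gclm, Cat, Taldo1 and Mgst1 remained of the 10. Within edge wells Gclm and Cat were called, and within middle wells no NRF2 target was (3 higher at an unadjusted p under 0.05, list median 0.37).

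Linoleic and palmitic acid are single fatty acids, and their dose in uM cannot be matched to the dose of HDL in ug/ul. Direct contrasts over all wells called 218 genes for HDL against LiA at 24 h (1.84%), 147 against PA at 24 h (1.24%), 508 against LiA at 72 h (4.28%) and 896 against PA at 72 h (7.55%). Position differed between these stimuli. At 72 h LiA had 7 middle wells and 1 edge well and PA had 7 middle wells, and the single LiA edge well measured 6320 CPM of Gclm against 181 to 562 CPM in the LiA middle wells.

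Plate 3 held HDL and both fatty acids in middle wells at 72 h, 2 cultures with HDL, 4 with LiA and 3 with PA, and matched plate and position. There 35 genes were called against LiA (0.295%), 17 higher (0.143%) and 18 lower (0.152%), and 33 against PA (0.278%), 17 higher (0.143%) and 16 lower (0.135%). Of the NRF2 targets Gclm, Prdx1, Srxn1 and Taldo1 were higher with HDL than with either fatty acid, and of the proliferation genes 7 were lower than with LiA and 6 lower than with PA. No gene of these lists was called in the opposite direction.

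In those wells Gclm measured 1840 and 2430 CPM with HDL, 319 to 562 CPM with LiA and 431 to 624 CPM with PA, a difference of 2.34 ± 0.25 from LiA (adjusted p = 0.011) and of 2.01 ± 0.26 from PA (adjusted p = 0.0257). Ccnb2, cyclin B2, measured 11.6 and 15.6 CPM with HDL, 88.2 to 191 CPM with LiA and 128 to 219 CPM with PA (-3.26 ± 0.36, adjusted p = 0.0121, and -3.61 ± 0.38, adjusted p = 0.0117). The fatty acid wells of that plate overlapped in Ccnb2 with the untreated middle wells of 72 h on the other plate, at 88.5 to 237 CPM.

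Clec12a measured 121 and 137 CPM with HDL, 531 to 560 CPM with LiA and 501 to 832 CPM with PA, and was lower than with either (adjusted p = 0.0107 and 0.00923). Cd36, the fatty acid and scavenger receptor, measured 2300 and 2490 CPM with HDL, 679 to 872 CPM with LiA and 532 to 742 CPM with PA, higher by 1.63 ± 0.18 (adjusted p = 0.011) and 1.85 ± 0.19 (adjusted p = 0.0117). Spp1 measured 1020 and 1190 CPM against 361 to 444 and 322 to 456 CPM, higher than with either fatty acid (adjusted p = 0.0228 and 0.0322).

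The lipid storage genes Plin2 and Hilpda were not called on plate 3. Plin2 at 72 h measured 3580, 4290 and 4510 CPM with LiA and 3040, 3490 and 4260 CPM with PA, above the untreated median of 1550 CPM, and HDL differed from LiA by 0.56 ± 0.20 (adjusted p = 0.102) and from PA by 0.77 ± 0.21 (adjusted p = 0.0102) over all wells, with neither called on plate 3 alone (adjusted p = 0.349 and 0.212). Hilpda was higher with HDL at 72 h over all wells, by 3.09 ± 0.60 against LiA (adjusted p = 0.000337) and 3.11 ± 0.62 against PA (adjusted p = 0.000265). On plate 3 it measured 179 and 189 CPM with HDL, 7.75 to 55.1 CPM with LiA and 13.5 to 65.2 CPM with PA, with no overlap, and did not pass there (adjusted p = 0.287 and 0.503). At 24 h Hilpda and Plin2 were called in neither contrast without plate as a term, and with it Hilpda was higher with HDL than with LiA (2.52 ± 0.42, adjusted p = 8.56e-06) and PA (1.87 ± 0.46, adjusted p = 0.0144). Without plate as a term the difference from PA had the opposite sign. Hilpda measured 7.04, 252 and 480 CPM with PA at 24 h, against 50.5 to 170 CPM with HDL. The value of 7.04 CPM was from the single PA culture on a plate with HDL. It was a middle well of plate 1, where HDL lay at the edge.

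**Figure D5:**
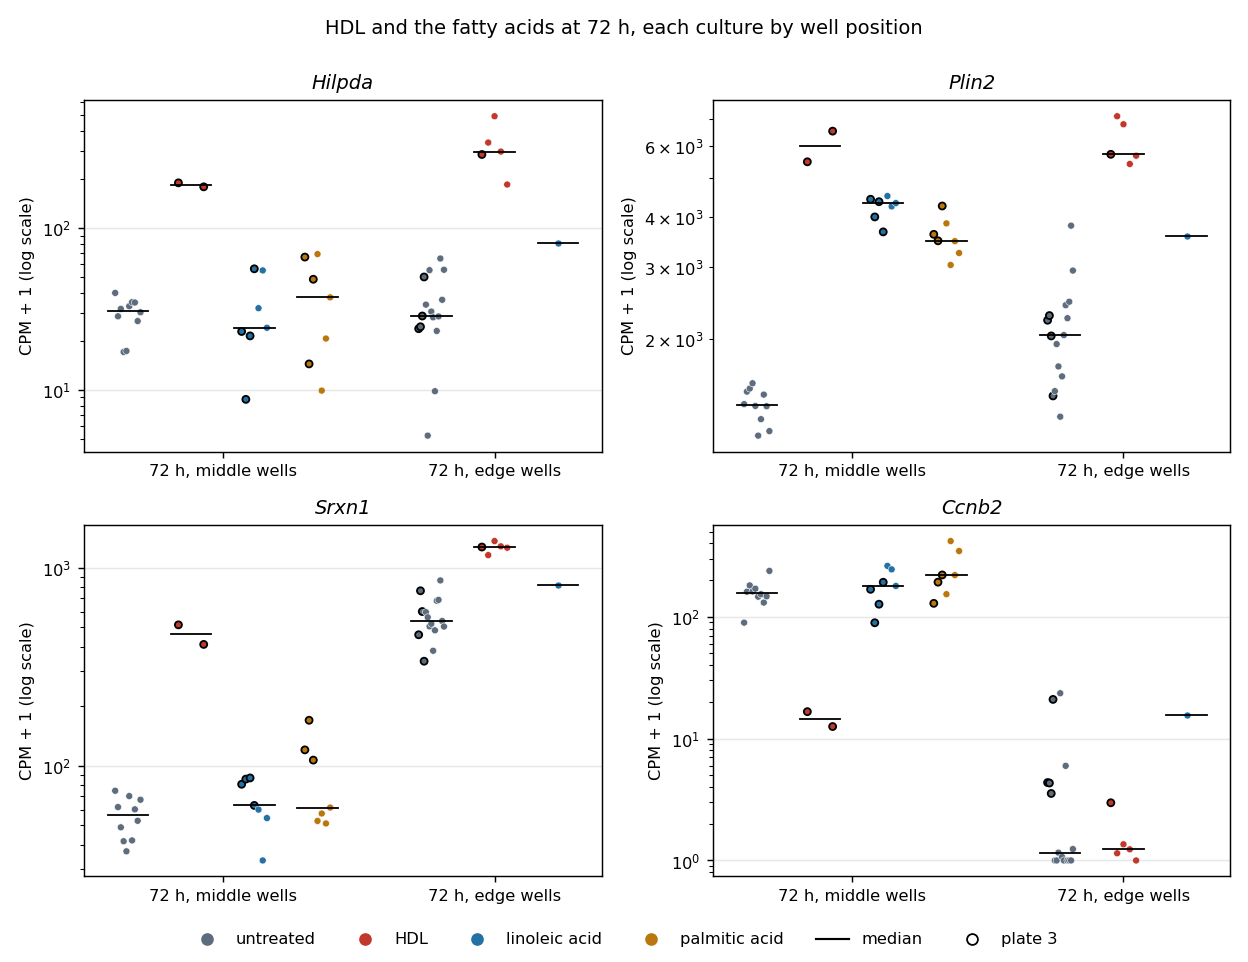
CPM + 1 on a log axis for Hilpda, Plin2, Srxn1 and Ccnb2 at 72 h in each untreated, HDL, linoleic acid and palmitic acid culture, with middle wells at the left and edge wells at the right, medians as black lines and a black ring around cultures of plate 3. Among middle wells the 2 HDL cultures stand above all others for Hilpda, Plin2 and Srxn1 and below all others for Ccnb2.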

How the data were processed

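Pools of 3′ RNA libraries from single culture wells, amplified with T7 polymerase, were sequenced on an Illumina NextSeq. Transcripts were quantified by the authors with Salmon 0.7.1 against Ensembl build 81 and summed to genes, and the authors dropped shallow libraries. The deposited values are CPM, gene reads per M mapped reads, and columns summed to 998202 to 999835. The labels list another genome build, which was not used here. Only 70.3% to 85.9% of low values were whole multiples of 1 read (tolerance 0.1), so reads were not recovered and no count model was run. Of 784 columns 110 were used and 674 were not.

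Genes over 5 CPM in at least 7 cultures were tested with limma 3.58.1 (R 4.3.3) on log2(CPM + 1), with a variance trend and Benjamini-Hochberg adjustment over all genes tested. One fit held the 80 HDL and untreated cultures (11394 genes), and another added the 30 fatty acid cultures (11873 genes). The fits were tested on simulated data. Alternatives covered plate, library pool, pseudocount, filter, scaling, single plates, an exact two-sided rank-sum test, and each HDL culture left out. Those on well position, single plates and the middle wells of plate 3 were chosen after the data were seen.

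The members, the 17 pathway and 9 marker lists and the comparisons were chosen with earlier results of these data known. Genes named are list members, by preference those of smallest adjusted p, the 10 largest changes each way called with and without plate as a term, and the 5 largest for other contrasts. Others are said to be chosen after their values were seen. Some genes of the lists are not reported here.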

Additional observations from a re-analysis of the deposited data

Results flagged for a closer look

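In 16 of 280 groups examined, 1 HDL culture stood apart from the rest, where chance gives about 1 in 20. At 24 h the lowest culture measured 1.61 CPM of Llgl2 (next 6.76), 22.7 CPM of Acly (next 55.3), 3.22 CPM of Asns (next 8.86) and 329 CPM of Pcna (next 456), all of them the same culture of plate 2. Also at 24 h, 1 culture of plate 1 was highest in Sqle at 40.8 CPM (next 17.3) and lowest in Tgm2 at 642 CPM (next 919). Another of plate 1 was highest in Hspa5 at 223 CPM (next 161). At 72 h the highest culture measured 6.32 CPM of Zkscan8 (next 0.195), 19.9 CPM of H2-Eb1 (next 1.33), 46.3 CPM of Lss (next 20.0) and 1.56 CPM of P2ry12 (next 0.051). The lowest measured 34.8 CPM of Mcm2 (next 80.5), 2.72 CPM of Llgl2 (next 23.6), 10.3 CPM of Arhgap25 (next 23.9), 389 CPM of Tgm2 (next 776) and 2.82 CPM of Tmem119 (next 9.52).

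The HDL difference at 72 h minus that at 24 h was called for 7 named genes. It was 2.51 ± 0.56 for Phgdh (adjusted p = 0.0398), 2.45 ± 0.43 for Spp1 (adjusted p = 0.0021) and 1.67 ± 0.38 for Cxcl14 (adjusted p = 0.0398). It was -3.40 ± 0.72 for Ly6a (adjusted p = 0.0268), -2.05 ± 0.44 for Pdpk1 (adjusted p = 0.0281), -1.85 ± 0.37 for Fcgr2b (adjusted p = 0.0152) and -1.57 ± 0.35 for Zfp36l2 (adjusted p = 0.0357). Time and lot of cells cannot be told apart, and with plate and position as terms Phgdh (adjusted p = 0.108) and Ly6a (adjusted p = 0.349) were not called.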

How the results depend on the processing

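No paired analysis was possible because the labels number libraries and give no replicate number that groups share. Against 142 genes at 24 h, plate as a term gave 299, a separate fit for each time 356, the exact rank-sum test 470, plate and position together 72, middle wells 397, edge wells 51, leaving out untreated plate 7 88, and a difference of at least 1 92. Leaving out each HDL culture gave 82 to 140. Against 385 genes at 72 h, plate gave 665, library pool 928, a separate fit 121, the rank-sum test 101, plate and position 713, middle wells 900, edge wells 56, plate 4 alone 185, leaving out untreated plate 9 205 and plate 10 971. Plate 3 alone, where 2 of 3 HDL cultures and none of the 4 untreated ones lay in the middle, gave 0 by limma (645 at an unadjusted p under 0.05). Leaving out each HDL culture gave 201 to 428, 201 without replicate 4. Genes called in both fits numbered 109 and 223. The split at 72 h, 127 higher and 258 lower, was 383 and 282 with plate and 228 and 237 after a median shift of each culture. Against 8 genes for the difference between times, plate gave 273, library pool 239, plates with both conditions 118, no filter 2, position 15, plate and position 90, middle wells 110, leaving out untreated plate 7 3, plate 9 47 and plate 10 29, and leaving out each HDL culture 2 to 10. Against LiA, 218 became 816 with plate and 485 in middle wells at 24 h, and 508 became 1057 with plate, 186 with position, 142 in middle wells and 35 in those of plate 3 at 72 h. Against PA, 147 became 277 in middle wells at 24 h, and 896 became 1490, 316, 222 and 33 at 72 h in the same order. The 5 cholesterol synthesis genes of 72 h became 10 with plate, 9 with library pool, 8 on plates with both conditions, 3 with a pseudocount of 0.1 or no filter, 0 in a separate fit, 10 with plate and position, 2 in middle wells, 2 in edge wells, 0 on plate 3 (6 at an unadjusted p under 0.05) and 1 on plate 4, and 2 to 5 with each HDL culture left out; at 24 h the count was 0 throughout. The causes of these shifts were not tested.

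Of 12849 values of named genes, 11250 kept their side of the threshold, 1140 lost and 433 gained a call, and 26 reversed. A value counted as reversed where its sign changed and at least 1 of the fits compared called the gene. Sign changes without a call in either fit are among the 11250. On plate 2 alone Ccl2 (0.05) and Lpl (0.32) reversed at 24 h. On plate 3 alone Rasgrp3 (1.31), Cx3cr1 (0.93), Klhl9 (0.60), Maf (0.46), Abcg1 (0.08), Cybb (0.28), Ctsc (0.33), Tmsb4x (0.39), G6pdx (-0.12), Prdx1 (-0.10) and Tgm2 (-0.01) reversed at 72 h. The time difference of Srxn1 reversed to -1.38 with plate or on plates with both conditions and to -1.34 with library pool. Against LiA at 24 h with plate, Clec7a (0.81), Ctsl (0.85) and H2-Aa (1.66) reversed, and against PA at 24 h Hilpda (1.87). Against PA at 72 h Rasgrp3 (0.02) and Csf1r (0.01) reversed in middle wells, and Slc7a11 (-0.21), Rasgrp3 (0.25), Llgl2 (-1.27) and Cybb (0.04) in those of plate 3. With 1 HDL culture left out, 23 of 60 named calls at 24 h and 31 of 66 at 72 h were lost in at least 1 fit, and 0 changed sign. An estimated depth of 1.09 M reads in the shallowest culture limits genes of a few CPM.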
